A study of Mus musculus with 8 samples.

Results

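Rtp4 and 8 other interferon-stimulated genes (Ifi44, Ifi35, Ifi27, Ifi27l2a, Xaf1, Cmpk2, Phf11b and Phf11d) are described here, 9 of the 55376 genes in the count table. They were chosen by name from the PM over PH difference in these same counts, so their differences between the treatments are a description. No p-value is given for them, and where the fit across all genes called or did not call them, this is counted only and supports nothing. RNA-seq reads were counted in mouse bone marrow dendritic cells (BMDCs), antigen-presenting cells cultured from marrow precursors. The cells were left overnight with 1 of 2 anaerobic bacteria killed by heat, P. heparinolytica (PH samples) or P. melaninogenica (PM samples). Each treatment had 3 samples, called replicates 1, 3 and 4 after the sample ids of the labels, and all 9 genes passed the filter on low counts that left 14382 genes. No untreated cells were analysed here, so each value compares one bacterium with the other. The labels name no strain, age or sex of the mice and do not say whether an id marks an animal or a culture.

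Interferons bind receptors at the cell surface, whose Janus kinases activate transcription factors of the STAT family. Together with IRF9 these enter the nucleus and bind the interferon-stimulated response element (ISRE), a DNA motif of repeated GAAA tetrads near the start of many antiviral genes. Dendritic cells that meet bacterial products can make interferons and respond to their own. The 9 genes share this mode of induction but not a function: Rtp4 helps receptors reach the cell surface, Cmpk2 makes nucleotides in mitochondria, Ifi27 and Ifi27l2a are small membrane proteins, Xaf1 binds an inhibitor of cell death, Ifi35 and Ifi44 are cytoplasmic proteins, and Phf11b and Phf11d carry a PHD zinc finger.

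A RefSeq promoter (250 bases before to 50 after the start of the gene, GRCm38.p6) was found for 6 of the 9 genes, and Rtp4, Ifi27 and Ifi27l2a had no entry. The search was for the core GAAANNGAAA on both strands, and 1 of the 6 promoters, that of Phf11b, held it, against 3.44% of 32851 promoters. A core with 1 or 2 bases between the tetrads (GAAANGAAA or GAAANNGAAA), searched after the sequences had been seen, was present in 5 of the 6 promoters and in 6.27% of all promoters. The stretches around these 5 matches are printed from 5′ to 3′ on the strand of the gene, because they let the spacing be compared between genes. The match is in capitals, and TTTC in capitals is GAAA on the other strand.
Xaf1, chr11:72301599-72301658, plus strand: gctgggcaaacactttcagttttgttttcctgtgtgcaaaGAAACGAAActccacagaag
Ifi35, chr11:101448385-101448441, plus strand: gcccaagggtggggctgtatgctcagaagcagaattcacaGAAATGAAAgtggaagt
Ifi44, chr3:151749930-151749998, minus strand: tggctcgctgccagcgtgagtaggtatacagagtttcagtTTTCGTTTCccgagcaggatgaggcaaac
Phf11b, chr14:59341351-59341420, minus strand: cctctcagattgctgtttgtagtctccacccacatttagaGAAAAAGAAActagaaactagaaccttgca
Phf11d, chr14:59365466-59365534, minus strand: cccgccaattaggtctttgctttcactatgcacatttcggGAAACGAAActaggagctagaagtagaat

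In Xaf1, Ifi35, Ifi44 and Phf11d the tetrads were 1 base apart, and in Phf11b they were 2 bases apart. Xaf1, Phf11d and, read on the other strand, Ifi44 held the same 9 letters. Counted from the RefSeq start, the match began 10 bases after it in Xaf1 and 13 after it in Ifi35, and 48 bases before it in Ifi44, 50 in Phf11b and 4 in Phf11d. The gene spans of the count table, printed below, start elsewhere: counted from these, the match began 9, 18 and 2 bases after the start in Xaf1, Ifi35 and Ifi44, and 29 and 24 bases before it in Phf11b and Phf11d. The Cmpk2 promoter held neither form, which says only that these letters are not in this window. The GAS core TTCNNNGAA, a motif bound by pairs of STAT proteins, reads the same on both strands and was found in 1 of the 6 promoters (Ifi35) and in 8.3% of all promoters. A match to letters describes the sequence and is not a measured binding site.

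All 9 genes were lower in cells given PM, and in each of them the highest PM sample lay below the lowest PH sample. By edgeR's quasi-likelihood test 8 of the 9 were called lower, against 1.64% of all tested genes called lower and 2.34% called in either direction. With a replicate block on the sample id all 9 were called lower, against 8.27% of all tested genes lower and 15.3% in either direction. All 3 PM values lay below all 3 PH values in 9.28% of tested genes. These counts were set by the choice of the genes and nothing is read from them. Their median log2 fold change (PM over PH) was -1.25, and that of all tested genes was 0.01. In bulk RNA, fewer responding cells and less RNA per cell cannot be told apart.

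**Figure D1:**
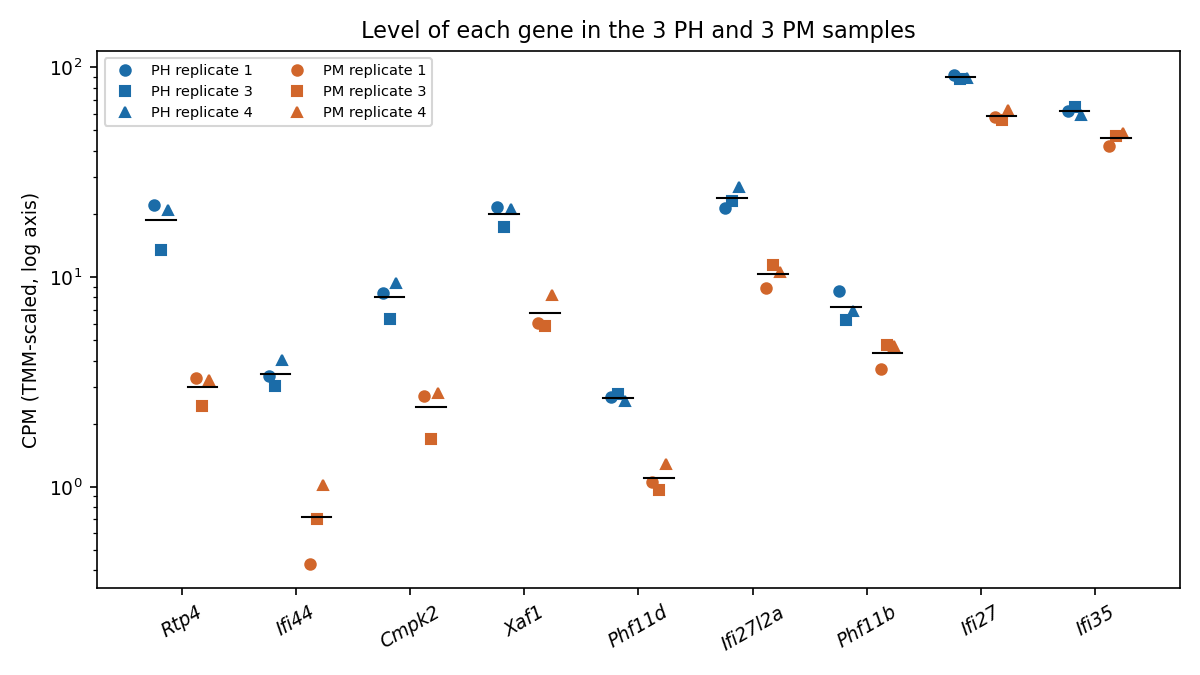
Levels of the 9 genes in CPM (counts scaled to the TMM-adjusted library total, log axis) in each of the 3 PH samples (blue) and 3 PM samples (orange), with a bar at each mean and a symbol for each sample id. The PM points of every gene sit below its PH points, from a wide gap in Rtp4 to a narrow one in Ifi35.

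Rtp4 (chr16:23520291-23614222, plus strand, GRCm38, protein-coding), a chaperone that carries certain G protein-coupled and taste receptors to the membrane, had 22.0, 13.5 and 20.9 CPM in PH replicates 1, 3 and 4. In PM replicates 1, 3 and 4 it had 3.30, 2.43 and 3.23 CPM. The groups did not overlap, the lowest PH value being 4.09 times the highest PM value, and replicate 3 was the lowest sample in both treatments. The fitted log2 fold change was -2.68 ± 0.20 (SE), a 6.41-fold lower level with PM, the second largest fall among tested genes. These values rest on 156 to 840 counts per PH sample and 69 to 126 per PM sample. Of its exon length, 15.2% overlaps exons of Gm45338 on the same strand, a gene with 1 count over all samples. The other receptor transporters were near 0: Rtp1 and Rtp3 had 0 counts over all samples and Rtp2 had 1.

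Cmpk2 (chr12:26469204-26479837, plus strand), the mitochondrial kinase of UMP and CMP, had 8.42, 6.30 and 9.41 CPM in PH replicates 1, 3 and 4 and 2.72, 1.70 and 2.80 CPM in the PM replicates. Replicate 3 was again the lowest in both treatments, and the groups did not overlap. The log2 fold change was -1.77 ± 0.22 (SE), 3.41-fold lower with PM. Other nucleotide kinases did not pass the test, with Cmpk1, the cytosolic UMP and CMP kinase, at 0.04 ± 0.07 (SE; adjusted p = 0.865 by edgeR) and Dtymk, the dTMP kinase, at 0.03 ± 0.07.

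Ifi27 (chr12:103434211-103440239, plus strand) and Ifi27l2a (chr12:103442167-103443680, minus strand) encode small hydrophobic proteins of one family and lie 1927 bases apart. Ifi27 had 91.7, 88.4 and 88.8 CPM in PH replicates 1, 3 and 4 and 57.7, 55.8 and 62.5 CPM in the PM replicates. Ifi27l2a had 21.4, 23.0 and 26.8 CPM with PH and 8.89, 11.4 and 10.6 CPM with PM. Neither gene overlapped between the groups, and the PH samples of Ifi27 were the tightest of the 9 genes. The log2 fold change was -0.61 ± 0.06 (SE) for Ifi27 and -1.20 ± 0.12 for Ifi27l2a, so the neighbours were 1.53-fold and 2.30-fold lower with PM. Ifi27l2b, another gene of the family, had 0 counts in all samples.

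Xaf1 (chr11:72301630-72313733, plus strand) encodes a zinc finger protein that binds XIAP, the X-linked inhibitor of apoptosis. It had 21.7, 17.4 and 21.1 CPM in PH replicates 1, 3 and 4, and 6.07, 5.83 and 8.24 CPM in the PM replicates. The groups did not overlap, and PM replicate 4 was the highest of its group. The log2 fold change was -1.58 ± 0.15 (SE), 2.98-fold lower with PM. Its partner Xiap was not called, at -0.21 ± 0.08 (SE; adjusted p = 0.309 by edgeR), and was called lower with the block (0.00435). The related caspase inhibitors Birc2 (0.05 ± 0.10) and Birc3 (-0.17 ± 0.08; adjusted p = 0.419 by edgeR) were not called either, and Birc3 was called lower with the block (0.0104).

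Ifi35 (chr11:101448407-101458698, plus strand), which binds the interferon-inducible protein NMI, had 62.0, 64.5 and 59.3 CPM in PH replicates 1, 3 and 4 and 42.2, 46.8 and 48.4 CPM in the PM replicates. This was the narrowest gap of the 9 genes relative to level, the lowest PH value being 1.23 times the highest PM value. The log2 fold change was -0.43 ± 0.07 (SE), 1.35-fold lower with PM, and it was no longer called when PH replicate 3, PH replicate 4 or PM replicate 3 was left out. Nmi had 23.9 ± 1.66 CPM in the PH samples and 16.7 ± 2.64 in the PM samples (SD, n = 3 each). Nmi, at -0.51 ± 0.12 (SE, log2), was not called (adjusted p = 0.0682 by edgeR) but was with the block (1.08e-05). Relatives and partners of the 9 genes that could be tested numbered 9, of which edgeR called 0, DESeq2 1 and the block 3, all lower, and 2 had an unadjusted p below 0.05. Exons of Gm11626 on the other strand overlap 17.4% of the Ifi35 exon length, and Gm11626 had 24 counts over all samples.

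Ifi44 (chr3:151730922-151749960, minus strand), an antiproliferative protein with a GTP-binding region, had 3.37, 3.02 and 4.01 CPM in PH replicates 1, 3 and 4 and 0.43, 0.70 and 1.03 CPM in the PM replicates. The PM values differed most among themselves of the 9 genes and rest on 9, 21 and 40 counts, so this fold is the least precise. The groups did not overlap, and the log2 fold change was -2.22 ± 0.28 (SE), 4.64-fold lower with PM. Its relative Ifi44l had 1 count over all samples.

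Phf11b (chr14:59320964-59341351, minus strand) and Phf11d (chr14:59347407-59365470, minus strand) lie 6055 bases apart in a cluster of PHD finger genes, a domain that reads histone tails. Phf11b had 8.62, 6.22 and 6.87 CPM in PH replicates 1, 3 and 4 and 3.63, 4.73 and 4.70 CPM in the PM replicates. Phf11d had 2.67, 2.76 and 2.56 CPM with PH and 1.05, 0.97 and 1.28 CPM with PM. The groups did not overlap in either gene, and replicate 1 of Phf11b was both the highest PH and the lowest PM sample. The log2 fold change was -0.73 ± 0.16 (SE) for Phf11b, the member not called without the block, and -1.25 ± 0.19 for Phf11d, which was no longer called when PH replicate 4 or PM replicate 3 was left out. Phf11c, next to Phf11d, did not differ beyond its spread, with 4.80 ± 0.121 CPM in the PH samples and 4.92 ± 0.999 in the PM samples (SD, n = 3 each; log2 0.04 ± 0.16 SE; adjusted p = 0.947 by edgeR). Phf11a, on the other side of Phf11b, had 105 counts over all samples and was at -0.33 ± 0.38 (SE, log2; adjusted p = 0.784 by edgeR).

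The values of the Phf11 genes are uncertain because the copies resemble each other. Of all 50-base windows in Phf11b transcripts, 47.0% also occur in transcripts of other genes and 26.0% in those of Phf11a, and 5.71% of Phf11d windows occur in Phf11c. The promoters of Phf11a and Phf11b were identical in 98.2% of 279 aligned bases, and those of Phf11b and Phf11d in 71.7% of 180. The stretch of Phf11a that matches the Phf11b stretch above is shown for that comparison, with the same match in capitals, which began 29 bases before the RefSeq start.
Phf11a, chr14:59297522-59297591, minus strand: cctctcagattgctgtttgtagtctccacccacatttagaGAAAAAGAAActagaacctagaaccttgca

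Phf11a and Phf11b thus carried the same core in nearly the same sequence, while the Phf11c promoter held neither form. The labels do not say how reads common to these copies were counted.

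**Figure D2:**
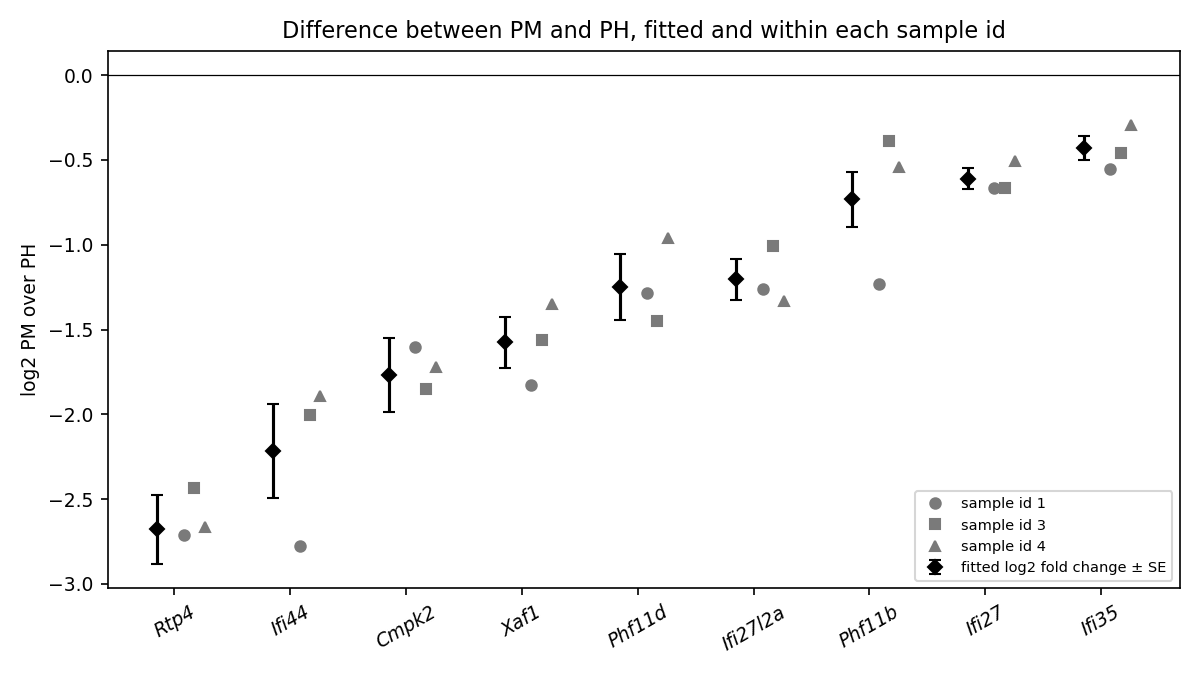
Log2 fold change (PM over PH) of each of the 9 genes as fitted over all samples (black, with SE) and within each sample id (grey; circle id 1, square id 3, triangle id 4). All points lie below 0, and the 3 ids spread most in Ifi44 and Phf11b.

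Within the sample ids, which pair a PM with a PH sample, the difference was below 0 in 3 of 3 pairs for each of the 9 genes. This follows from the lack of overlap between the treatments and adds nothing to it. Rtp4 had log2 differences of -2.71, -2.44 and -2.67 for ids 1, 3 and 4. Ifi44 ranged from -2.78 for id 1 to -1.89 for id 4, and Phf11b from -1.23 for id 1 to -0.39 for id 3. Id 1 had the largest difference in Rtp4, Xaf1, Ifi35, Ifi44, Phf11b and Ifi27, id 3 in Cmpk2 and Phf11d, and id 4 in Ifi27l2a.

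Samples of one treatment also differed from each other in a direction that most of the 9 genes shared. In PH replicate 3, 7 of 9 genes lay below their PH mean, with a median deviation of -0.18 on the log2 CPM scale and the furthest in Rtp4 (-0.45). In PM replicate 4 all 9 lay above their PM mean (median 0.12), and in PM replicate 1, 7 lay below it (median -0.11), Ifi44 the furthest at -0.58. The 58 other listed interferon-stimulated genes had median deviations of -0.10, 0.10 and -0.09 in the same 3 samples, and all tested genes had medians within 0.01 of 0. PH replicate 3 was also the shallowest sample. PH replicate 3 and PM replicate 1 were the samples whose count columns match libraries of 2 runs by name. The part of depth or run in this was not tested. The median SD of the 9 genes was 0.17 (log2) with PH and 0.21 with PM, against 0.13 and 0.13 over all tested genes.

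Levels between genes are compared as RPKM, the count scaled to exon length in kilobases and to the TMM-scaled library. With PH the order was Ifi27 (mean 87.5), Ifi27l2a (51.3), Ifi35 (45.5), Rtp4 (9.64), Xaf1 (7.72), Phf11b (6.11), Cmpk2 (2.51), Ifi44 (1.19) and Phf11d (0.94). Neighbours in this order whose samples overlapped were Ifi27l2a with Ifi35, Rtp4 with Xaf1, and Xaf1 with Phf11b. With PM it was Ifi27 (57.2), Ifi35 (33.6), Ifi27l2a (22.2), Phf11b (3.68), Xaf1 (2.58), Rtp4 (1.53), Cmpk2 (0.75), Phf11d (0.39) and Ifi44 (0.25), where Phf11b overlapped Xaf1 and Phf11d overlapped Ifi44. Rtp4 thus stood above Xaf1 and Phf11b in mean level with PH and below both with PM. Ifi27 was the most abundant of the 9 with either bacterium.

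The other interferon-stimulated genes, a list of 58 drawn up by function with earlier results of these data known, were lower with PM as well. By edgeR 42 of 58 fell, with a median log2 of -0.72, and none could rise, since all 58 estimates were below 0. Without PH replicate 4, 26 fell, and with the block 54 did. The 8 largest falls were those of Oasl2, a 2-5A synthetase relative with ubiquitin-like domains (-2.48 ± 0.19 SE), Ifit3b (-2.47 ± 0.44), the RNA-binding Ifit1 (-2.39 ± 0.19), the transcription factor Irf7 (-2.23 ± 0.17), Oas2 (-2.21 ± 0.24) and Oas3 (-2.01 ± 0.22), which make the RNase L activator 2-5A, the ubiquitin-like Isg15 (-1.97 ± 0.09) and the nucleic acid sensor Zbp1 (-1.81 ± 0.08). Ifit3b was no longer called when PH replicate 1, PH replicate 4 or PM replicate 3 was left out. Its fall rests on 1, 3 and 8 counts in PM replicates 1, 3 and 4, so its place in this order is uncertain. The median of the 9 genes was within the range of this list, and 15 of the 58 genes were at or below it.

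At the other end of the list, 5 genes had a log2 fold change above -0.25. Epsti1, induced in epithelial and immune cells, was at -0.23 ± 0.14 (SE; adjusted p = 0.555 by edgeR), and Mx1, a dynamin-like antiviral GTPase, at -0.19 ± 0.10 (0.457). Both were called lower with the block (adjusted p = 0.00311 and 0.0347 by edgeR). Tor3a (-0.12 ± 0.07), the mitochondrial RNA exonuclease Pnpt1 (-0.09 ± 0.11) and the ubiquitin ligase Trim25 (-0.01 ± 0.07) were called by neither fit. The 9 genes described here had no member in this range, which follows from how they were chosen.

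**Figure D3:**
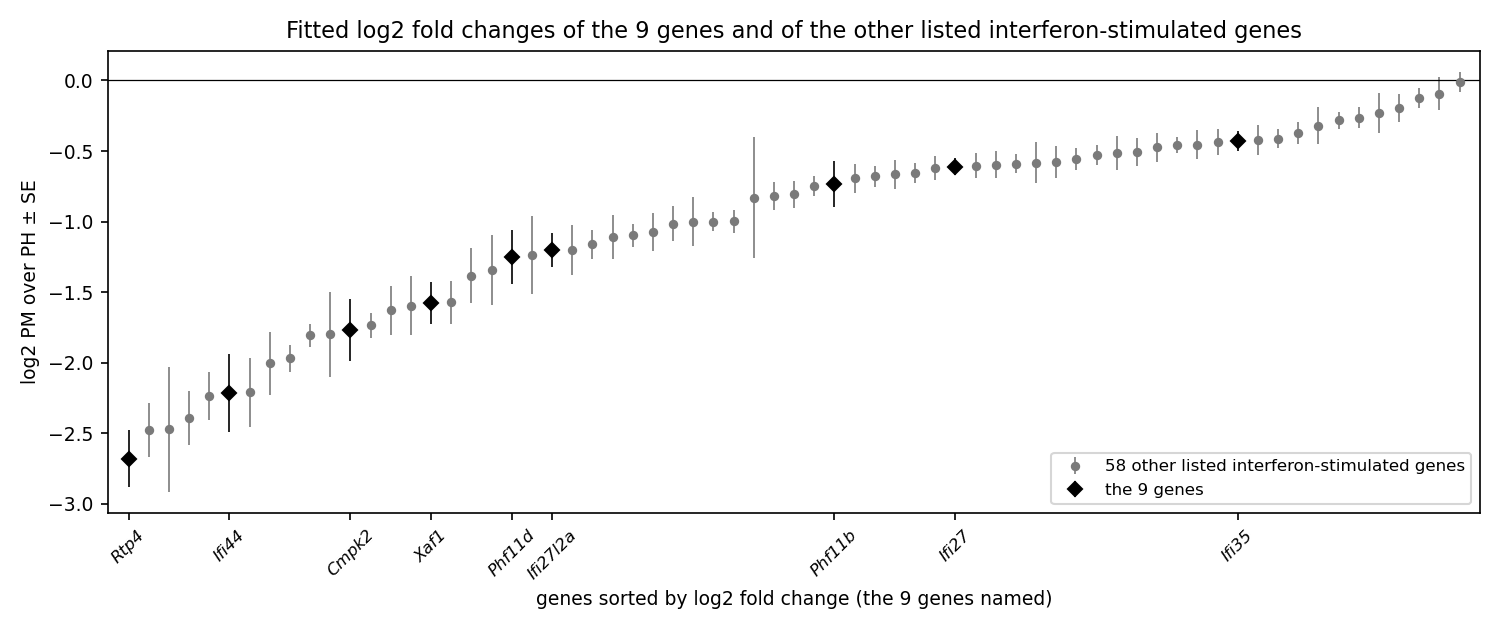
Fitted log2 fold change (PM over PH) with SE of the 9 genes (black diamonds) and the 58 other listed interferon-stimulated genes (grey circles), sorted by size, with only the 9 genes named on the axis. They are spread through the list, from Rtp4 at -2.68 to Ifi35 at -0.43.

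The promoter motif was set beside the same list. GAAANNGAAA was present in 20 of the 46 listed genes with a promoter in the table (43.5%) and in 1 of 6 of the genes described here. With 1 or 2 bases between the tetrads, it was present in 25 of 46 (54.3%) and in 5 of 6. No test of these shares was made.

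Upstream of these genes, few reads were counted for the interferons themselves. Of 20 interferon genes listed, 14 had 0 counts in all samples. For counted reads, this allows up to 0.0391 CPM over the PH samples and 0.0337 CPM over the PM samples (3 counts of the summed totals). How multiply mapping reads were treated is not stated, and sequence shared among the interferon genes was not examined. A count of 0 therefore need not mean that RNA was absent. Ifnb1, the interferon beta gene, had 5 counts over the PH samples and 5 over the PM samples. The only one with enough counts for the test was Ifng, interferon gamma, with 64 counts over the PH and 31 over the PM samples (log2 -1.30 ± 0.40 SE; adjusted p = 0.182 by edgeR, 0.00753 with the block). The cells were sampled after an overnight culture, and earlier times were not analysed here.

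Some transcription factors of interferon signalling fell, while edgeR without the block called none of the receptor and kinase genes. Stat2, Irf7, Irf9, Isg15 and Usp18, and Nmi above, are also in the list of 58 above, so they are no separate evidence. Of 19 genes of reception and signalling, 4 fell by edgeR, 5 by DESeq2 and 7 with the block, and 0 rose by any of these or at an unadjusted p below 0.05. Of the latter, the receptor genes Ifnar1 (-0.04 ± 0.08 SE), Ifnar2 (-0.04 ± 0.10), Ifngr1 (-0.05) and Ifngr2 (-0.02) and the kinase genes Jak1 (-0.02) and Tyk2 (-0.03) had small estimates. The kinase gene Jak2 was at -0.14 ± 0.08 (adjusted p = 0.534 by edgeR) and was called lower with the block (0.0421). Irf9 (-0.53 ± 0.07; adjusted p = 0.00708 by edgeR) fell, as did Irf7, and so did Irf1 (-0.54 ± 0.09; 0.0190), which was no longer called when PH replicate 3 or PM replicate 4 was left out. Stat2 was at -0.45 ± 0.10 (0.0646) and was called with the block. Of 9 genes listed as feedback inhibitors 1 fell by edgeR, Isg15, 2 fell by DESeq2 and 6 with the block. Whether they act as inhibitors in these cells was not tested. Usp18, which blocks the type I receptor, was at -0.58 ± 0.14 (adjusted p = 0.0879 by edgeR) and was called lower by DESeq2 and with the block (9.45e-09). Socs1 was at -0.29 ± 0.09 (adjusted p = 0.194 by edgeR) and was called lower with the block (0.000542).

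Most genes beside the 9 on the chromosome were not called, as was so of most tested genes. Within 100 kb of the 9 genes the table has 63 others, of which 21 were tested, and by edgeR 2 of these fell and 0 rose (median log2 -0.07). At an unadjusted p below 0.05 these were 4 and 2, by DESeq2 2 and 1, and with the block 4 and 1. Over all tested genes, 2.34% were called in either direction by edgeR and 15.3% with the block. No test compared the neighbours with these shares. Rsad2, which lies 12752 bases from Cmpk2 and encodes viperin, an enzyme that turns CTP into an antiviral nucleotide, had 55.0, 44.5 and 63.6 CPM in PH replicates 1, 3 and 4 and 16.4, 16.4 and 22.0 CPM in the PM replicates. The groups did not overlap, and its log2 difference, -1.57 ± 0.15 (SE; adjusted p = 0.00147 by edgeR), was near that of Cmpk2. Rsad2 is also in the list of 58 above. Its promoter held the exact core, starting 120 bases before the RefSeq start, while that of Cmpk2 did not.

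The other called neighbour was Txndc17, a thioredoxin-like protein 91615 bases from Xaf1, at -0.31 ± 0.06 (SE; adjusted p = 0.0385 by edgeR). It was no longer called with total count scaling or when any sample other than PM replicate 1 was left out. Other genes close to the 9 were not called. Ddx24, an RNA helicase 8387 bases from Ifi27, was at -0.16 ± 0.06 (adjusted p = 0.283 by edgeR, 0.0261 with the block), and Rpl27, a ribosomal protein gene 2878 bases from Ifi35, at 0.05 ± 0.07 (0.810). Vat1, 47 bases from Ifi35 on its other side, was at 0.35 ± 0.09 (0.0847) and was called higher with the block (2.48e-06), the opposite side from Ifi35. Setdb2, a histone methyltransferase gene 36539 bases from Phf11d, was at -0.07 ± 0.14 (adjusted p = 0.898 by edgeR). Rtp4 and Ifi44 had no tested neighbour.

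**Figure D4:**
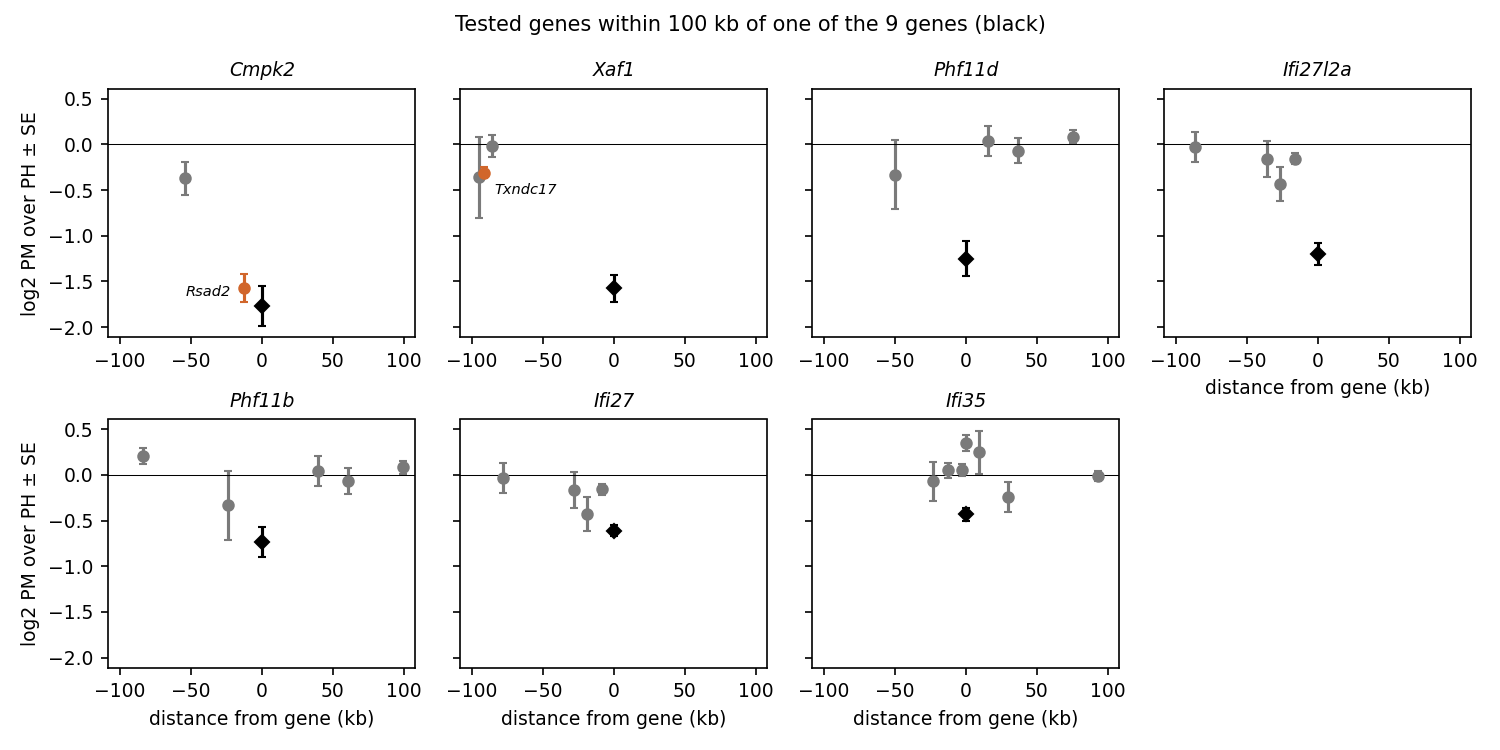
Log2 fold change (PM over PH, with SE) of tested genes within 100 kb of each of the 9 genes, against distance in kilobases (black diamond, the gene itself; orange, called neighbours; grey, others). Rsad2 beside Cmpk2 is the lowest neighbour at -1.57, and the others lie between -0.43 and 0.35.

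The genes whose pattern over the 6 samples was most like that of Rtp4 were found by the root mean square (RMS) difference of centred log2 CPM, a measure that the treatment difference dominates. They were Oasl2 (RMS difference 0.12), Ifit1 (0.21), Trim30c (0.21), Irf7 (0.23) and Oas2 (0.27). Oasl2 had 48.7, 32.6 and 53.8 CPM in PH replicates 1, 3 and 4 and 8.17, 6.86 and 9.37 CPM in the PM replicates, so it too was lowest in replicate 3 under both treatments. Of the 9 genes, Ifi44 (0.44) and Cmpk2 (0.46) were nearest to Rtp4 and Ifi35 (1.13) the furthest. The mean of the 9 genes was matched most closely by Trim30d (0.09), Irgm1 (0.10), Slfn8 (0.12), Ms4a6c (0.13) and Trim30a (0.13).

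Markers of dendritic cells were present in all samples, and edgeR called none of them. Summed over 16 listed genes they ranged from 11913 to 14154 CPM with PH and from 11533 to 13507 CPM with PM, and 0 of the 15 tested were called by edgeR, against 2 by DESeq2, 2 at an unadjusted p below 0.05 and 4 with the block. Itgax had a mean of 152 CPM with PH and 161 with PM, and Cd209a was at 0 in all samples. Plasmacytoid dendritic cell markers, 8 genes, were summed at 413 to 433 CPM with PH and 300 to 333 with PM, and 1 of 6 tested, Bst2, fell by edgeR and 2 by DESeq2 or with the block. Bst2 is itself interferon-stimulated and is in the list above, and without it the ranges were 135 to 167 and 123 to 152 CPM. The defining gene Siglech had 1 count over all samples.

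The remaining marker lists overlapped between the treatments in their sums. Macrophage markers ranged from 1072 to 1535 CPM with PH and from 1223 to 1709 with PM. Monocyte markers ranged from 4857 to 6635 and from 5389 to 6871 CPM, with 0 of 7 called by edgeR, 1 lower by DESeq2, 4 lower at an unadjusted p below 0.05 and 5 lower with the block. Chil3 alone averaged 5625 CPM with PH and 5955 with PM, so it made up most of these sums. Neutrophil markers ranged from 489 to 609 and from 373 to 523 CPM, with 1 of 10 (Csf3r) lower by edgeR and 4 lower with the block. Lymphocyte and NK cell markers ranged from 22.2 to 23.0 and from 21.1 to 24.6 CPM, with 0 of 8 called by edgeR, DESeq2, the block or an unadjusted p below 0.05. The part of cell composition in the levels of the 9 genes was not tested.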

How the data were processed

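The authors deposited whole-number read counts per gene without normalization, and these counts were used as they stand. The submitters' processing notes name the build GRCm38 and the tools STAR 2.5.3a, featureCounts 1.6.4 and Trimmomatic, but neither the strand option nor how multiply mapping reads were treated. Totals ranged from 11624367 (PH replicate 3) to 40233148 (PH replicate 4). The series lists 8 libraries. Of the 6 count columns, 2 match 2 libraries each by name (2 runs), those of PH replicate 3 and PM replicate 1. Whether such a column holds 1 run or both is not stated, and each column was used as 1 sample. Coordinates and exon lengths come from the deposited table, gene types from GENCODE.

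The test was edgeR 4.0.16 (in R 4.3.3; filterByExpr minimum count 10, TMM scaling, glmQLFit with robust estimates, glmQLFTest), with Benjamini-Hochberg adjustment over 14382 genes and a threshold of 0.05. Standard errors were taken from the F value. Log2 CPM used a prior count of 2. The fit was also run on simulated data, which held no effect of the id for the fit without the block. The outcome is not given here and nothing is read from it. Nothing says that replicates came from separate animals or cultures, and p-values then measure only the spread among these samples, which may be technical.

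Pairing by id was checked from deviations from the treatment means: correlations for the same id were 0.44, 0.322 and 0.244, and for different ids between -0.349 and 0.0656. On this basis samples of one id were treated as pairs in the block and in the differences within ids. The main edgeR fit had no term for the id and so was not paired. The block is given where it changes a call. No 2 columns agreed within sampling noise. The 9 genes and the lists were chosen with earlier results of these data known. Named genes were the 9, the 8 largest falls of the list and its members above -0.25, called and nearest neighbours, tested genes of the pathway lists and the 5 closest in pattern. Bst2, Csf3r, Chil3, Itgax, Cd209a and Siglech were named from the marker lists after their values were seen. Some genes of the lists are not reported here. Alternatives were the block, DESeq2 1.42.0, other scalings and filters, leaving out each sample, other distances and other motif spacings.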

Additional observations from a re-analysis of the deposited data

How the results depend on the processing

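For the 9 genes, 124 of 135 log2 fold changes under alternative settings kept direction and side of the threshold, 5 fell short of it, 6 newly passed it and 0 reversed. For the 50 other named genes the figures were 674 of 744, 11, 59 and 0. Phf11b passed with DESeq2 and without the low-count filter, as well as with the replicate block. The number of the 9 called lower was 6 to 8 when 1 sample was left out and 9 with DESeq2. Genes called among all tested numbered 337, and 2197 with the replicate block, 584 with DESeq2, 846 with no low-count filter and 142 to 417 without 1 sample (142 without PH replicate 4). With the block and 1 id left out, chosen after seeing the data, they numbered 2145, 1580 and 1529 without ids 1, 3 and 4. Of the other interferon-stimulated genes 26 to 46 fell without 1 sample, the lowest without PH replicate 4. Neighbours called numbered 2, and 5 with the replicate block (4 without id 1, 4 without id 3 and 3 without id 4), 4 with no filter, 1 with total count scaling, 1 within 50 kb and 1 to 2 without 1 sample. The ISRE core was in 1 of 6 promoters, in 5 with 1 mismatch, in 3 with 2 or 3 bases between the tetrads and in 5 with 1 or 2. With 1 mismatch, 35.4% of all promoters matched. The cause of these shifts was not tested. Of the 9 genes, depth limits Ifi44 most, with 9 counts in PM replicate 1, and Phf11d next, with 22 there.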
